A study of Mus musculus with 12 samples.

Results

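Fos, Fosb, Jun, Junb, Jund, Egr1, Atf3, Ier2, Btg2 and Zfp36 are immediate early genes that tissue dissociation is known to raise, and they are described here in sorted stem cells of the hair follicle from mouse back skin. These 10 genes were chosen by name, not by a measured value, and all 10 were found among the 37931 gene names shared by both count tables of the series. The 12 libraries held poly(A)-selected RNA from 4 groups. Knockout (KO) mice carried K14-H2BGFP, K14Cre and Foxc1 fl/fl, and wild-type (WT) mice carried K14-H2BGFP and Foxc1 fl/fl without Cre, so both genotypes had the floxed alleles and the fluorescent histone. The K14 promoter is active in basal keratinocytes and in follicle stem cells, so Cre was not limited to the sorted cells. In anagen, the growth phase of the follicle, there were 2 KO libraries (titled P29 and P31) and 3 WT libraries (titled P29, P30 and P31). In early telogen, the resting phase, KO had 4 libraries (numbered 1, 2, 3 and 5) and WT had 3 (numbered 1, 3 and 4), with an age label of 47 days. The title and the age label disagreed in 2 libraries, the WT library titled P31 (age label 43) and early telogen KO replicate 5 (titled P43). Every library came from skin digested with collagenase and trypsin and sorted as H2BGFP(+), Sca-1(-), CD34(+) and CD49f(+). No undissociated sample was among the 12, so the levels below include whatever digestion and sorting added, and that part cannot be told apart from the level in skin. Nothing in the labels ties replicates to separate animals, and p-values then measure only the spread between these samples.

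Immediate early genes are transcribed within minutes of a stimulus without new protein synthesis, through kinase cascades that act on factors already bound at their promoters, such as serum response factor (SRF) with its ternary complex partners and CREB/ATF proteins. Many of them encode transcription factors (FOS and JUN proteins pair to form AP-1), while others end the response by destabilizing messages or slowing proliferation. In single-cell and sorted-cell studies of skin and muscle they are known as a signature of enzymatic dissociation, and in intact skin AP-1 genes also respond to wounding and growth factors.

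The regulatory sequences of 4 members are shown because the results below turn on them: Fos is the member the others are set against, Jun followed the common level of the members least closely, and Fosb and Btg2 separated the stages when set over Fos. Each is the 250 bases before the RefSeq transcript start (GRCm38.p6), given in the direction of transcription at chr12:85473640-85473889 (plus strand) for Fos, chr7:19310046-19310295 (minus) for Fosb, chr4:95052223-95052472 (minus) for Jun and chr1:134079156-134079405 (minus) for Btg2. Capitals mark matches to TGACG (the core letters of a CREB/ATF site), TGANNTCA (a CREB-type or AP-1-type element of 8 letters) and GCGNGGGCG (an EGR-type element), searched on both strands.
Fos: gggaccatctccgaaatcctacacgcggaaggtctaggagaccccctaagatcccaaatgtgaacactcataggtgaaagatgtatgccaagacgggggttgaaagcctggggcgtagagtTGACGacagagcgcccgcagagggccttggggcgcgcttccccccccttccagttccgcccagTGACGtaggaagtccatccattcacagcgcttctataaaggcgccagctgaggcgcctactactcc
Fosb: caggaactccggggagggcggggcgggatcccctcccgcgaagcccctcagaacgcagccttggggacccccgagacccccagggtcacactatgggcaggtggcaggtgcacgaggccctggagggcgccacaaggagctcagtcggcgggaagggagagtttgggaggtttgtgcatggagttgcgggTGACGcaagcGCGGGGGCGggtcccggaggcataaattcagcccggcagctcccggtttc
Jun: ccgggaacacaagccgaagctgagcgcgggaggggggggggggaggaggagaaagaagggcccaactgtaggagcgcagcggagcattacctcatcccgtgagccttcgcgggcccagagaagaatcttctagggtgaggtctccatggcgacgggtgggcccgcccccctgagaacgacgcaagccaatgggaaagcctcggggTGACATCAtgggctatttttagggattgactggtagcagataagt
Btg2: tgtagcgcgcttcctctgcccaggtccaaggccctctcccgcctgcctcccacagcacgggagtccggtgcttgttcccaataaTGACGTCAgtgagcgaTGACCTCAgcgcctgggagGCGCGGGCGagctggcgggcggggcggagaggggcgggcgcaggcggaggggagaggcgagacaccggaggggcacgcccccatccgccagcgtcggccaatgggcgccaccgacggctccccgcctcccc

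Fos held TGACG at -129 and -66 from the start, Fosb held it at -60 with a GCGNGGGCG match at -50, and Jun held a TGANNTCA match at -45. Btg2 held TGANNTCA matches at -166 and -150, the first of which contains TGACG on each strand, and a GCGNGGGCG match at -131. RefSeq promoter entries were found for 8 of the 10 members, all except Egr1 and Ier2. Of these 8, TGACG lay in 5, against 17.9% of 27025 promoters of the same length, and TGANNTCA lay in 3 (12% of promoters). GCGNGGGCG lay in 3 (4.65%), a CArG box, the element SRF binds, in 1 (Zfp36, 1.40%), and TGANTCA, the 7-letter AP-1 element, in none (6.87%). The RefSeq windows of Zfp36 and Atf3 lie inside the longer GENCODE spans of these genes, and that of Jund ends before its GENCODE start without reaching it, so these 3 windows are not shown. They are included in the counts above, Jund among the 3 with TGANNTCA, Atf3 among the 5 with TGACG and Zfp36 among the 3 with GCGNGGGCG and as the CArG match. These matches are letters in a window, not measured binding. Bases outside the 250 were not searched, nor were the promoters of Egr1 and Ier2. A member without a match, such as Fos for the CArG box, may therefore hold one elsewhere.

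The 3′ untranslated region of such genes often carries AU-rich elements, to which the product of Zfp36 (tristetraprolin) binds and which shorten the life of a message. The letters TATTTAT lay at least once in the 3′ untranslated region of 7 of the 10 members, against 27.6% of 21005 annotated genes and 27.9% of the 10000 genes with a region of similar length. Zfp36 itself held 3 matches, Fos held 2, and Fosb, Jun, Jund, Atf3 and Btg2 held 1 each, while Junb, Egr1 and Ier2 held none. A stretch of 30 bases around a match is shown for 4 members whose levels are followed most closely below, with TATTTAT in capitals (GRCm38, at chr12:85477102-85477131, plus strand, for Fos; chr7:19303326-19303355, minus, for Fosb; chr1:134077249-134077278, minus, for Btg2; and chr7:28376958-28376987, minus, for Zfp36).
Fos: gtgttttcaattTATTTATtaagatggatt
Fosb: cccacccccagcTATTTATccctttcctgg
Btg2: aaaatgaagagcTATTTATacatgtttttt
Zfp36: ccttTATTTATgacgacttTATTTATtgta

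All 10 genes passed the filter on low counts in every comparison, with 830 or more counts in each library. The members together took 1.15% and 3.66% of all gene counts in the anagen KO libraries titled P29 and P31. In anagen WT they took 1.56%, 2.31% and 2.95% in the libraries titled P29, P30 and P31. In early telogen the share was 1.57%, 2.25%, 1.10% and 1.86% in KO replicates 1, 2, 3 and 5, and 1.47%, 2.47% and 1.78% in WT replicates 1, 3 and 4. The 4 groups overlapped in this share, and the highest and the lowest anagen values both belonged to KO. Fewer cells of a type and less RNA per cell cannot be told apart in such bulk samples.

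Levels are given as CPM, a gene's count scaled by the total of gene counts in its library. Ranked by CPM per kilobase of exon, a measure that sets genes of different length side by side, the members stood near the top of 34726 genes in every library. Exon length was the union of all annotated exons of a gene, 6243 bases for Fosb and 3470 for Zfp36. It can exceed the length of a single message, so the order of the members depends on it. Atf3, a stress-induced repressor and activator of the ATF family, and Fos had the highest means over the 12 libraries, at 1359 and 1305 CPM per kilobase, with ranks of 13 to 73 and 10 to 57. Jun (772), Zfp36 (749) and Junb (615) followed, then Fosb (507) and Egr1 (503), then Btg2 (392), Jund (386) and Ier2 (322). The neighbours in this order overlapped in their ranges: Jun spanned 452 to 1356 and Zfp36 346 to 1666 CPM per kilobase. The lowest rank of any member in any library was 404, for Fosb in the anagen KO library titled P29. Jund is otherwise known as the JUN protein expressed at a steady level in unstimulated cells, and its CPM nevertheless differed 3.96-fold between its highest and lowest library. The widest range belonged to Fosb (7.82-fold) and Btg2 (7.48-fold), and the narrowest to Jun (3.0-fold).

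**Figure D1:**
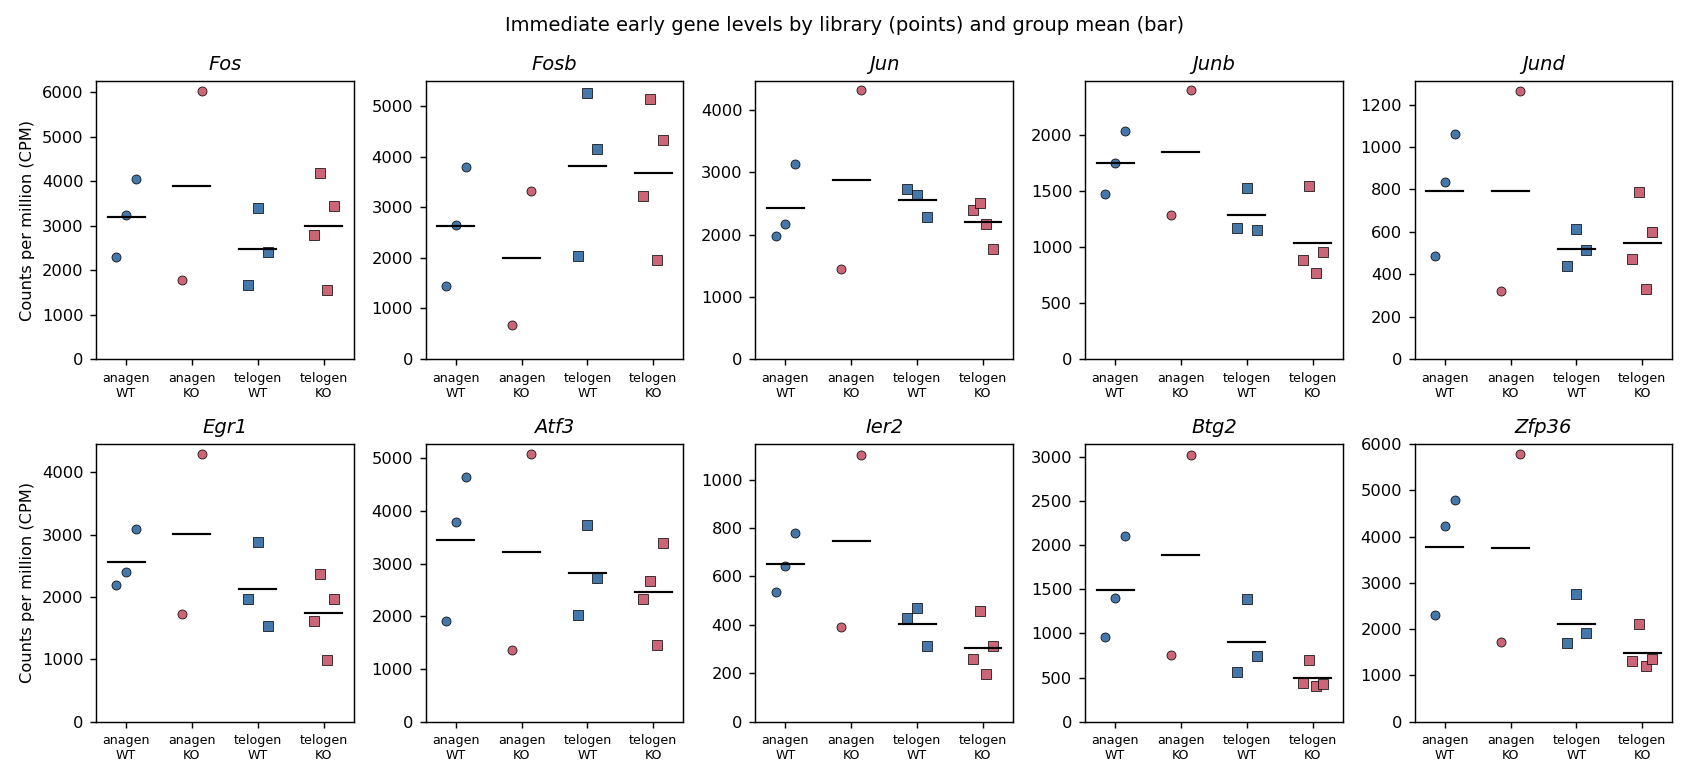
CPM (linear axis from 0) of each of the 10 members in each library, grouped by stage and genotype, with blue for WT, red for KO, circles for anagen and squares for early telogen. Points are libraries and bars are group means. The anagen KO group holds 2 points that lie far apart for every gene. The group means of Btg2, Ier2 and Zfp36 are lower in early telogen than in anagen, and those of Fosb are higher. Taken over all libraries, the stages overlap for each of these genes.

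Fos, the founding FOS subunit of AP-1 (chromosome 12, 85473890 to 85477273, plus strand, GRCm38), was at 1768 and 6029 CPM in the anagen KO libraries titled P29 and P31, and at 2285, 3238 and 4056 CPM in the anagen WT libraries titled P29, P30 and P31. In early telogen it was at 2798, 4190, 1557 and 3449 CPM in KO replicates 1, 2, 3 and 5 and at 1664, 3386 and 2406 CPM in WT replicates 1, 3 and 4. The groups overlapped throughout, with the lowest early telogen library in KO and the highest anagen library in KO. Fosb, its paralog, known for a truncated splice form that builds up under repeated stimulation (chromosome 7, 19302696 to 19310051, minus strand), was at 673 and 3313 CPM in anagen KO and at 1453, 2658 and 3787 CPM in anagen WT. In early telogen Fosb was at 3231, 5150, 1957 and 4334 CPM in KO and at 2027, 5267 and 4157 CPM in WT, in the same replicate order. Fosb was the member with the highest early telogen mean relative to anagen, although its groups overlapped in CPM in both genotypes.

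Each of the 3 JUN subunits overlapped in CPM between the groups of all 4 pairwise comparisons. Jun, the main DNA-binding partner of FOS (chromosome 4, 95049034 to 95052222, minus strand), was at 2884 ± 2039 CPM (SD, n = 2) in anagen KO, 2423 ± 619 (n = 3) in anagen WT, 2210 ± 322 (n = 4) in early telogen KO and 2554 ± 236 (n = 3) in early telogen WT. Junb (chromosome 8, 84974484 to 84978718, minus strand), which restrains JUN activity and proliferation in several cell types, was at 1846 ± 787, 1753 ± 278, 1041 ± 347 and 1285 ± 209 CPM in the same order of groups. Jund (chromosome 8, 70698949 to 70700616, plus strand) was at 791 ± 668, 794 ± 289, 548 ± 195 and 521 ± 88.6 CPM. Junb overlaps Prdx2, Jun overlaps the antisense gene Junos and Jund overlaps Gm11175, each on the opposite strand. Of the other members, Atf3 overlaps Gm24748 and Zfp36 overlaps Gm44710 in the same way. The strand option of the counting is not given in the sources used here, so reads of such pairs may not be separable.

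Among the other transcription factors, Egr1, a zinc-finger factor induced by growth factor signals (chromosome 18, 34859823 to 34864984, plus strand), was at 3011 ± 1816, 2559 ± 467, 1739 ± 587 and 2132 ± 688 CPM. Atf3 (chromosome 1, 191170296 to 191218039, minus strand) was at 3225 ± 2636, 3453 ± 1398, 2463 ± 806 and 2827 ± 853 CPM. In both genes the SD within each group exceeded the distance between KO and WT at either stage.

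Ier2, a small nuclear protein induced early by growth factors (chromosome 8, 84661331 to 84662852, minus strand), was at 393 and 1103 CPM in anagen KO and at 536, 644 and 778 CPM in anagen WT. It was at 257, 459, 198 and 312 CPM in early telogen KO and at 429, 468 and 312 CPM in early telogen WT. Every early telogen WT library lay below every anagen WT library for Ier2, where 47.9% of genes tested did not overlap between these groups. The KO groups overlapped for Ier2 only through the anagen library titled P29 and early telogen replicate 2. Btg2, an antiproliferative protein that recruits the deadenylase complex and is also a p53 target (chromosome 1, 134075170 to 134079120, minus strand), was at 759 and 3014 CPM in anagen KO and at 959, 1404 and 2102 CPM in anagen WT. In early telogen Btg2 was at 434, 701, 403 and 427 CPM in KO and at 558, 1392 and 740 CPM in WT. All 4 early telogen KO libraries lay below both anagen KO libraries for Btg2, where 44.9% of genes tested did not overlap between these groups. Of the 4, 3 lay below all 3 early telogen WT libraries for Btg2.

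Zfp36 encodes tristetraprolin, the RNA-binding protein that ends many of these responses (chromosome 7, 28376784 to 28380253, minus strand). It was at 1734 and 5781 CPM in anagen KO and at 2309, 4225 and 4784 CPM in anagen WT. In early telogen it was at 1310, 2107, 1201 and 1350 CPM in KO and at 1694, 2760 and 1916 CPM in WT. As with Btg2, KO replicate 2 was the only early telogen KO library that reached into the WT range.

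In early telogen, no member passed the test between KO and WT, although 9 of the 10 had a negative log2 fold change. In this comparison 0 of 10 members were called at an edgeR adjusted p under 0.05, against 0.956% of the 12030 genes tested. The members had a median of -0.45, and all genes tested had a median of 0.03. The largest estimate was that of Btg2, -1.09 ± 0.31 (SE), with an unadjusted p of 0.00376 and an edgeR adjusted p of 0.133. Zfp36 (-0.72 ± 0.25, edgeR adjusted p = 0.229), Ier2 (-0.60 ± 0.24, 0.323) and Junb (-0.51 ± 0.23, 0.406) followed, each with an unadjusted p under 0.05. Egr1 was at -0.50 ± 0.29, Atf3 at -0.39 ± 0.30, Jun at -0.38 ± 0.21 and Fosb at -0.28 ± 0.36, and the estimates nearest to 0 were those of Jund (-0.13 ± 0.25) and Fos (0.05 ± 0.32). Btg2 was called by DESeq2 (adjusted p = 0.00881) and by edgeR without the filter on low counts (adjusted p = 0.0158), and its adjusted p ranged from 0.0619 to 0.694 with a library left out. Without KO replicate 2 and WT replicate 3, the libraries with the highest member levels of their groups, Btg2 was at -0.69 ± 0.21 (edgeR adjusted p = 0.244).

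The levels of other cell types' markers were not the same in these libraries. Early telogen KO replicate 2, with the highest member share in its group, had the highest summed level of the 6 fibroblast markers (4975 CPM, against 463 to 1500 in the other 3 KO libraries) and of the 7 epidermal differentiation markers (5957 against 1764 to 2174 CPM). The epidermal list went both ways in that library, with Krt10 (3519 CPM, against 464 to 845) and Krt1 (1157 against 94.8 to 119) highest and Lor (62.9 against 96.9 to 170) and Flg (2.75 against 13.1 to 29.8) lowest of the 4. Its Ly6a, which encodes the Sca-1 used as a negative gate, was at 56.0 CPM, against 2.13 to 9.02 CPM in the other early telogen libraries. WT replicate 3, with the highest member share in WT, had instead the lowest fibroblast sum (253 CPM, against 838 and 1505) and the lowest epidermal sum (1566 CPM). Of the fibroblast list, Pdgfra was highest there among the WT libraries (9.83 CPM, against 3.21 and 1.96). Of the epidermal list, Ivl (7.88 CPM) lay between the other WT libraries (3.04 and 25.8). Every other marker of both lists was lowest in WT replicate 3. No marker of either list was at 0 in any library. The part of such cells in the member levels was not tested.

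In anagen, the members showed no difference between KO and WT beyond the spread of the libraries. Here 0 of 10 members were called, against 0.0% of 14409 genes, since edgeR called no gene in this comparison (1456 genes had an unadjusted p under 0.05, of which 0 were members, and DESeq2 called 499 genes, again with 0 members). Log2 fold changes ran from -0.50 ± 0.69 for Fosb (edgeR adjusted p = 0.861) to 0.25 ± 0.59 for Btg2 (0.926), with 5 positive, 5 negative and a median of 0.04 against 0.02 over all genes tested. The standard errors were 0.32 to 0.69. Each member was 1.86-fold to 4.92-fold higher in the KO library titled P31 than in that titled P29. In WT, too, every member was higher in the library titled P31 than in that titled P29. With title day entered as a blocking factor, a fit with 1 residual degree of freedom, the estimate of Fosb was -0.73 ± 0.25 (unadjusted p = 0.0280, edgeR adjusted p = 0.229) and those of the other 9 lay between -0.26 and 0.02, with 0 of 10 called. Sex was partly confounded with genotype here, as both KO libraries and 1 of 3 WT libraries were labelled female.

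**Figure D2:**
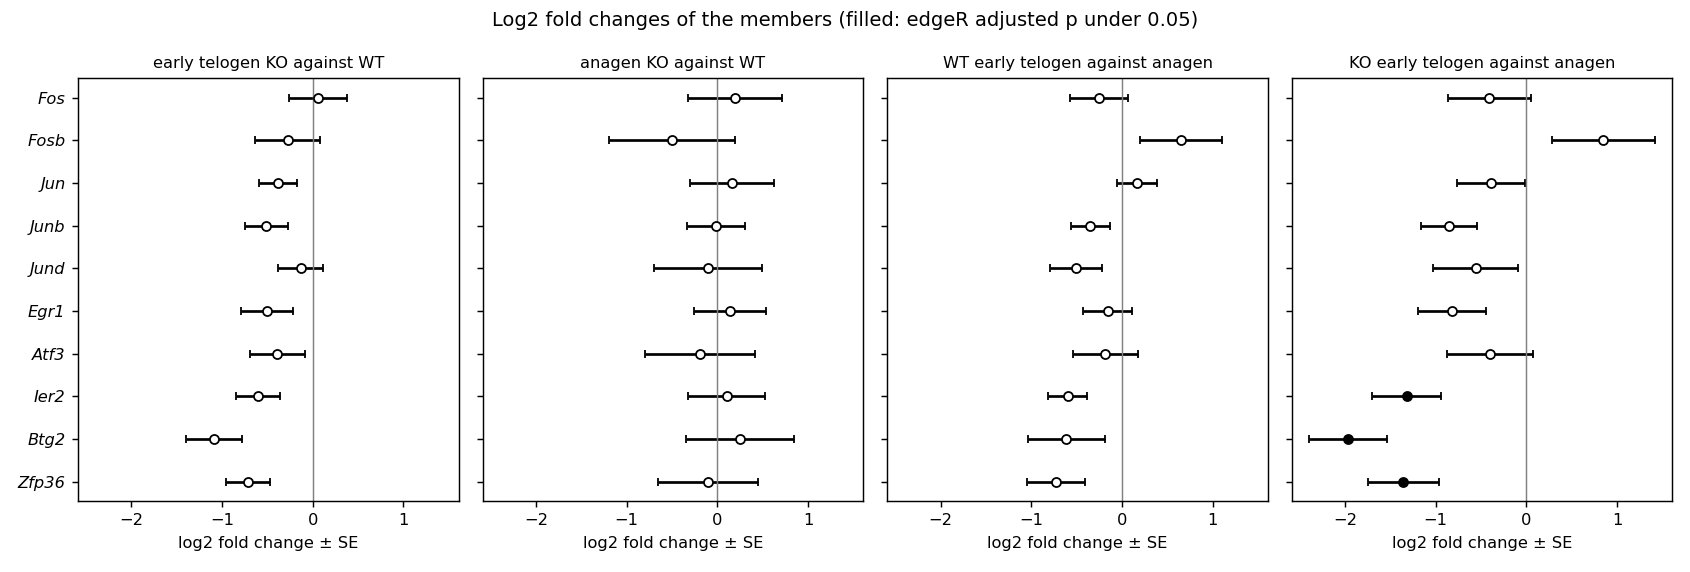
Log2 fold change (x axis) with its standard error (bars) for each member in 4 comparisons, from edgeR; filled points passed an adjusted p under 0.05. Filled points are those of Ier2, Btg2 and Zfp36 in KO early telogen against anagen, and Fosb lies on the other side of 0 from them in both stage comparisons.

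Between stages in KO, Btg2, Zfp36 and Ier2 were called lower in early telogen (3 of 10 members, against 22.2% of genes called). These calls depended on the anagen KO library titled P31. In WT 0 members passed, and Fosb was the member with the highest estimate in each genotype. Stage, count table and sequencing depth cannot be told apart here, since each stage had a table of its own with 29025553 to 54482469 counts per library in anagen and 2662083 to 11821916 in early telogen. In WT, 0 of 10 members were called, against 29.5% of 12718 genes. The lowest estimates in WT were those of Zfp36 (-0.72 ± 0.32, edgeR adjusted p = 0.117), Btg2 (-0.61 ± 0.43, 0.321) and Ier2 (-0.60 ± 0.22, 0.0650), and Fosb was at 0.65 ± 0.45 (0.322). Ier2 was the 1 member whose WT libraries did not overlap in CPM between stages, against 47.9% of genes, so in WT the members' counts were below the background on both measures. Zfp36 was called without the anagen WT library titled P29 (-0.97, edgeR adjusted p = 0.0371), and so was Jund (-0.75, 0.0464). Btg2 was called without early telogen WT replicate 3 (-1.16, edgeR adjusted p = 0.0496). Ier2 was called with library totals in place of TMM (-0.74, edgeR adjusted p = 0.0271) and, with Zfp36, without the filter on low counts.

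In KO, 3 of 10 members fell from anagen to early telogen, against 22.2% of 12771 genes called in either direction and 12% called lower. Btg2 was at -1.97 ± 0.43 on the log2 scale (edgeR adjusted p = 0.0106), Zfp36 at -1.36 ± 0.40 (0.0330) and Ier2 at -1.32 ± 0.38 (0.0317). Junb (-0.86 ± 0.31, 0.0701) and Egr1 (-0.82 ± 0.38, 0.139) did not pass, nor did Jund (-0.56), Fos (-0.41), Atf3 (-0.40) and Jun (-0.39), and Fosb was at 0.85 ± 0.57 (0.309). Junb was called by DESeq2, without the filter on low counts, in the fit of all 12 libraries and with sex as a covariate (adjusted p = 0.0131 to 0.0365), and Egr1 without the filter (edgeR adjusted p = 0.0222). Without the anagen KO library titled P29, Junb (-1.26, edgeR adjusted p = 0.0367), Egr1 (-1.35, 0.0351) and Jund (-1.26, 0.0415) were called lower, as was Junb without early telogen KO replicate 2 (-1.01, 0.0259). The members' median was -0.69 and that of all genes tested -0.03. Btg2 was the only member without overlap in CPM between the KO groups, against 44.9% of genes, so on this measure the members were below the background in KO as well. All 3 calls were lost without the anagen KO library titled P31, which left a lone anagen library assumed to vary like the others: Btg2 was then at -0.70 (edgeR adjusted p = 0.237), Ier2 at -0.43 (0.534) and Zfp36 at -0.29 (0.705), while Fosb was called higher (2.37, 0.00878). The calls of Ier2 and Zfp36 were also lost without early telogen KO replicate 1, 3 or 5 (edgeR adjusted p = 0.0638 to 0.0817), and that of Btg2 held without each of these.

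Whether the KO effect differed between stages was tested over all 12 libraries. For this difference 0 of 10 members were called, against 0.144% of 13193 genes, and 0 members had an unadjusted p under 0.05. Estimates (the early telogen KO effect minus the anagen KO effect, log2) ran from -1.36 ± 0.69 for Btg2 (unadjusted p = 0.0710, edgeR adjusted p = 0.808) to 0.19 ± 0.82 for Fosb. Btg2 was called only without the filter on low counts (edgeR adjusted p = 0.0166). The stage comparisons and the genotype comparisons use the same libraries, so their values are given side by side and are not independent of each other.

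Set over Fos within the same library, Fosb and Btg2 separated the stages, Fosb upwards and Btg2 downwards in early telogen. The count of Fosb per count of Fos was 0.381 and 0.550 in anagen KO and 0.636, 0.821 and 0.934 in anagen WT. It was 1.15, 1.23, 1.26 and 1.26 in early telogen KO and 1.22, 1.56 and 1.73 in early telogen WT. All 7 early telogen libraries thus lay above all 5 anagen libraries. Btg2 per Fos was 0.429 and 0.500 in anagen KO, 0.420, 0.433 and 0.518 in anagen WT, 0.155, 0.167, 0.259 and 0.124 in early telogen KO and 0.336, 0.411 and 0.308 in early telogen WT. This ratio put all 7 early telogen libraries below all 5 anagen libraries and the early telogen KO libraries below the early telogen WT libraries. Between stages 2 of 9 ratios to Fos did not overlap, against 4.88% of 13192 genes set over Fos in the same way.

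Between KO and WT in early telogen, 5 of the 9 ratios to Fos were lower in every KO library, those of Egr1, Atf3, Ier2, Btg2 and Zfp36, against 3.4% of 12029 genes without overlap in either direction. Zfp36 per Fos was 0.468, 0.503, 0.771 and 0.391 in KO and 1.02, 0.815 and 0.796 in WT. The gap was narrow for Egr1 (highest KO ratio 0.636, lowest WT ratio 0.639), for Ier2 (0.127 and 0.130) and for Zfp36 (0.771 and 0.796), and wider for Atf3 (0.984 and 1.10) and Btg2 (0.259 and 0.308). These ratios share Fos as their denominator, they were chosen after the levels had been seen, and they are given as a description with no test. The members varied together with Fos between libraries, as described next, and the background of all genes was not matched to them in this respect.

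**Figure D3:**
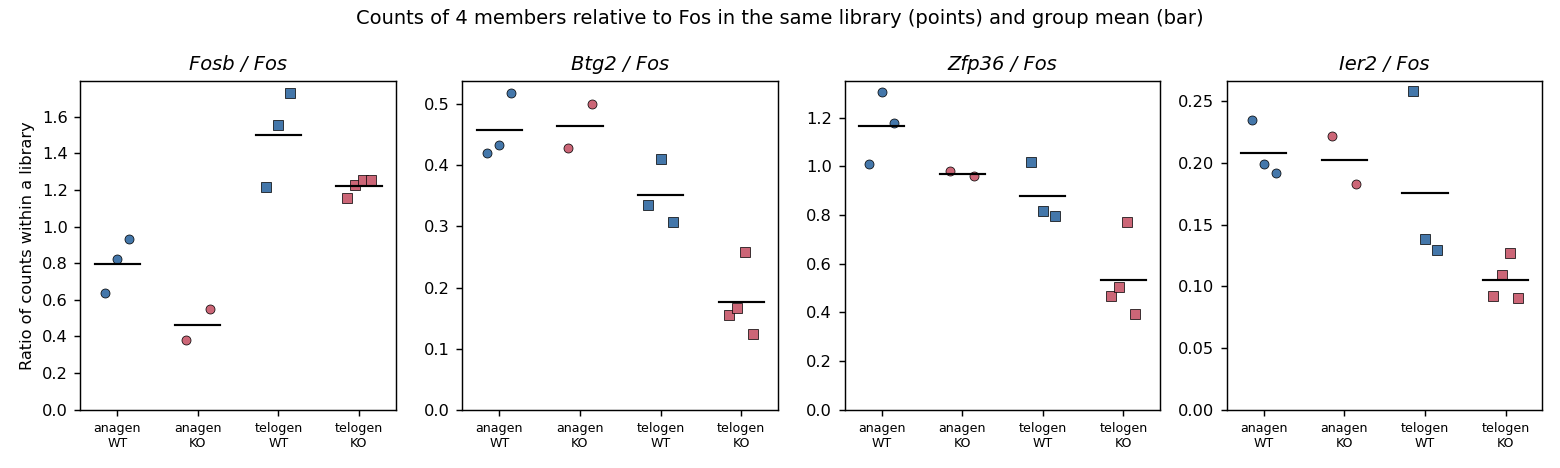
Ratio of the counts of Fosb, Btg2, Zfp36 and Ier2 to those of Fos in the same library (y axis, linear from 0), by stage and genotype; points are libraries and bars group means. Fosb per Fos is 1.15 or more in every early telogen library and at most 0.934 in anagen, and Btg2 per Fos is at most 0.411 in early telogen and 0.420 or more in anagen.

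In 7 of the 12 libraries all 10 members lay on the same side of their group means, and in the other 5 they lay on both sides. Relative to the mean of its group on the log2(CPM + 1) scale, the mean of the 10 members was -0.85 and 0.85 in the anagen KO libraries titled P29 and P31, and -0.48, 0.06 and 0.42 in anagen WT titled P29, P30 and P31. In early telogen it was -0.08, 0.50, -0.52 and 0.11 in KO replicates 1, 2, 3 and 5 and -0.28, 0.40 and -0.11 in WT replicates 1, 3 and 4. The 7 libraries were both anagen KO libraries, anagen WT titled P29 and P31, early telogen KO replicates 2 and 3 and early telogen WT replicate 3. Both anagen KO libraries mirror each other around their shared mean, so they are not separate observations in this count. Other sets of genes were not counted in this way. The library titled P31 was the highest of its anagen group for every member in both genotypes and that titled P29 the lowest. Mki67, a marker of dividing cells, ran the other way in anagen, at 156 and 33.0 CPM in KO titled P29 and P31 and at 81.3, 26.1 and 12.5 CPM in WT titled P29, P30 and P31. In early telogen Mki67 was at 46.4, 48.6, 47.9 and 49.96 CPM in KO replicates 1, 2, 3 and 5, where the members' share ranged from 1.10% to 2.25%. In early telogen WT, Mki67 was at 8.57, 5.65 and 8.48 CPM in replicates 1, 3 and 4, lowest in replicate 3, which had the highest member share. Day, library and cycling state cannot be told apart in anagen, and their part was not tested. In early telogen, Mki67 was higher in every KO library than in every WT library. Genotype and cycling state therefore cannot be told apart there either, and the part of cycling in the member levels was not tested.

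**Figure D4:**
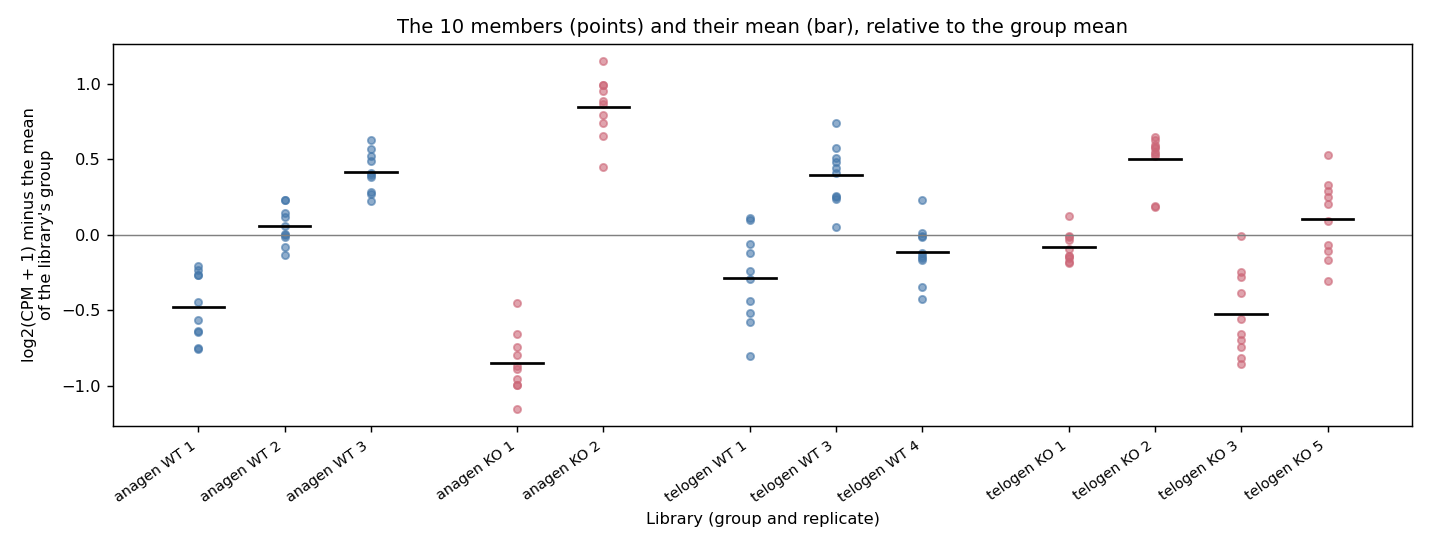
Log2(CPM + 1) of each member minus the mean of its group (y axis) in each of the 12 libraries (x axis, named by group and replicate); points are the 10 members and bars their mean. The members' mean runs from a value of -0.85 in anagen KO replicate 1 (titled P29) to 0.85 in anagen KO replicate 2 (titled P31).

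Jund and Zfp36 followed the members' mean most closely, with a root mean square difference of 0.11 and 0.12 over the 12 libraries, and Jun (0.28) and Fosb (0.27) least. In early telogen Jun was at 2388, 2501, 2177 and 1771 CPM in KO replicates 1, 2, 3 and 5 and at 2732, 2642 and 2286 CPM in WT replicates 1, 3 and 4. It was lowest in KO replicate 5, where Fos was at 3449 CPM, and highest in WT replicate 1, where Fos was at 1664 CPM. By the same measure, 5983 other genes with a mean of at least 20 CPM were compared with the members' mean, and those closest to it included Nr4a1, a nuclear receptor that is itself an immediate early gene (0.14), Nfil3, a bZIP repressor (0.14), and Hspa2, a heat shock protein of the HSP70 family (0.14). Igdcc4 (0.17), Dusp1, a phosphatase that switches off MAP kinases (0.20), Midn (0.20), Wnt4 (0.21), Mertk (0.21) and Gas1 (0.22) were also among the closest, against a median of 0.53 over all genes compared. For KO against WT in early telogen none of these 9 genes passed, against 0.956% of genes tested. Igdcc4 (-0.82, edgeR adjusted p = 0.0728), Dusp1 (-0.96, 0.136), Midn (-0.64), Nr4a1 (-0.56), Gas1 (-0.52), Hspa2 (-0.25) and Wnt4 (-0.21) were negative, and Nfil3 (0.15) and Mertk (0.20) were positive. Likeness over libraries says only that the profiles run close.

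Other genes of the pathway were read from lists. In early telogen KO against WT, 0.956% of the 12030 genes tested passed, with a median log2 fold change of 0.03 and 5573 negative. The counts of the lists stand against these. Of 27 other immediate early genes 0 passed, with a median log2 fold change of -0.51 and 22 of 27 negative. The smallest p-values there were those of Ier3 (-0.87 ± 0.22, edgeR adjusted p = 0.0924) and the small GTPase Rhob (-0.92 ± 0.24, 0.108). Of 12 other AP-1, ATF and MAF factors 0 passed (median -0.18, with Crem at 0.65 and Atf5 at 0.73), and 0 of 8 paralogs of the members (median -0.31, with Zfp36l2 at -0.69 and Egr4 at 1.11). Heat shock genes, which respond to protein stress, had 0 of 12 past the threshold (median 0.13, with Hspe1 at 0.48 and Hspd1 at 0.30), and kinases and SRF cofactors upstream of the members 0 of 16 (median 0.05, with Elk3 at 1.47 and Srf at -0.65). In anagen KO against WT 0 genes of these 5 lists passed, against 0.0% of 14409 genes. Heat shock genes had the lowest median there, -0.86, with Hsp90aa1 at -1.04 ± 0.25 (edgeR adjusted p = 0.223) and Hspa1b at -1.35 ± 0.41 (0.336), while the other immediate early genes were at -0.13, the paralogs at -0.06, the AP-1, ATF and MAF factors at -0.16 and the upstream genes at 0.01. No gene of the 5 lists passed in the test of whether the KO effect differed by stage, against 0.144% of 13193 genes.

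Between stages the other immediate early genes did not all go with the members. Over all genes tested, 29.5% were called in WT (1724 of 12718 higher and 2024 lower) and 22.2% in KO (1301 of 12771 higher and 1534 lower), and the counts of the lists stand against these. In WT 9 of 27 rose in early telogen, among them Cyr61 (1.82 ± 0.24, edgeR adjusted p = 0.00137) and Ctgf (1.57 ± 0.28, 0.00435), secreted matricellular proteins, and the factor Klf6 (0.89 ± 0.20), and 2 fell, among them Egr2 (-0.97 ± 0.20). In KO 2 of 27 rose, among them Ctgf (1.91 ± 0.40, edgeR adjusted p = 0.00816), and 7 fell, among them Egr2 (-1.38 ± 0.24), Klf10 (-1.11 ± 0.23) and Ier3 (-1.20 ± 0.26). Of the AP-1, ATF and MAF factors, 4 of 12 rose and 1 fell in WT, and 2 of 14 rose and 2 fell in KO. Mafk (1.28 in WT, 1.98 in KO) and Atf6 (0.87 and 1.36) were called higher in each genotype, Jdp2, a repressor of AP-1, lower in each (-1.49 and -1.35), Mafg higher in WT (0.80) and Batf3, near the low end of counts, lower in KO (-3.69).

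Against the same 29.5% of genes called in WT and 22.2% in KO, 3 of the 8 paralogs were called in WT and 2 in KO. Btg1 rose in WT (0.74 ± 0.18) and Egr4 (-1.86) and Ier5l (-1.47) fell, and in KO Tob1 rose (1.28 ± 0.32) and Ier5l fell (-2.41). Among 12 heat shock genes, of which 2 were called in WT and 4 in KO, 0 rose and 2 fell in WT, Hspe1 (-1.63 ± 0.17) and Hsph1 (-1.03 ± 0.20). In KO 3 rose, Hsp90aa1 (1.47 ± 0.34), Hspa1b (1.25 ± 0.36) and Dnajb4 (1.10 ± 0.26), and Hspe1 fell (-1.38 ± 0.22). Of the 16 upstream genes, 3 rose in WT, Mkl1 (0.88), Mapk8 (0.69) and Rps6ka3 (0.65), and Mapk3 fell (-0.80), while in KO 0 passed. Whether a gene called in 1 genotype and not in the other differed between them is the difference tested above. In that test 0 of these genes passed, against 0.144% of genes tested.

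The identity of the libraries was checked on marker genes. Foxc1 was at 0.206 and 0.276 CPM in anagen KO and 0.910 to 3.11 CPM in early telogen KO, against 34.6 to 116 CPM and 43.8 to 61.2 CPM in WT, so every library matched its genotype label. All 10 follicle stem cell markers were above 0 in every library, with sums of 21842 to 36126 CPM. Krt5 and Krt14 made up most of each sum. In anagen, Krt15 was at 1254 to 2192 CPM in KO and 4641 to 9289 in WT (edgeR adjusted p = 0.156). Nfatc1 was at 60.0 to 99.3 CPM in KO and 160 to 234 in WT (edgeR adjusted p = 0.195). Estimates of Krt14, Sox9, Tcf7l1 and Lgr5 were above 0 in that comparison. The sums of the 5 endothelial markers (1.21 to 29.4 CPM), of the 7 immune markers (28.2 to 238 CPM) and of the 6 melanocyte markers (25.5 to 139 CPM) lay below those of the stem cell markers in all groups. Within the melanocyte list, Dct was called higher in early telogen KO than in WT (2.34 ± 0.43, edgeR adjusted p = 0.0274; 7.58 to 17.8 CPM against 1.30 to 2.32), with Tyrp1 at 2.18 ± 0.60 (0.124) and Tyr at 4.59 ± 1.21 (0.108). Mitf of the same list went the other way, at -0.94 ± 0.21 (edgeR adjusted p = 0.0621). The summed list overlapped, at 71.3 to 105 CPM in early telogen KO and 81.1 to 136 CPM in early telogen WT. Dct (-4.17) and Tyrp1 (-3.29) were called lower, and Mitf higher (2.06), in WT early telogen than in anagen. Tyr, with 0 or 1 count in each early telogen WT library, was called lower there too (edgeR adjusted p = 0.00130). Cd34, the gene of a sort marker, was called lower in early telogen KO (-1.20 ± 0.21, edgeR adjusted p = 0.0212; 349 to 417 CPM against 647 to 845). The part of these in the member comparisons was not tested. In anagen, reads placed at more than 1 position, which were not counted for genes, made up 31.1% and 32.8% in KO and 20.1% to 25.8% in WT.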

How the data were processed

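RNA-seq of 12 sorted libraries was used in the form the authors deposited, raw counts per gene in a separate table for each stage. TopHat2, HTSeq and the build mm10 are named per the submitters' processing notes, with versions, settings and strand option not given in the sources used here; the labels' protocols give a directional kit and oligo(dT) selection. Of the anagen table, 38803 lines were genes and 5 were tallies, which were left out of totals. The early telogen table held 37958 genes, 3 broken lines (left out) and 27 names turned into dates. CPM is a gene's count scaled by the library's total of gene counts. Totals are given with the stage comparisons; the shallowest library still held 830 or more counts of each of the 10 genes.

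Groups came from the labels. Each comparison was fitted on all genes of its groups with edgeR 4.0.16 in R 4.3.3 (TMM, filterByExpr with minimum count 10 and minimum total 15, robust quasi-likelihood F-test, Benjamini-Hochberg adjustment, threshold 0.05). Stage comparisons used names in both tables. The script was tested on simulated data. Alternatives were DESeq2 1.42.0, no filter, library totals, 1 fit of all libraries, sex as a covariate, a replicate block and leaving out each library. The anagen libraries titled P29 deviated together from their group means (r = 0.415 across genes), as did those titled P31 (0.359). Title day was therefore taken as the block in an alternative anagen fit, while the main fit had no block. These correlations are not independent, since the deviations of both anagen KO libraries from their shared mean mirror each other. Likeness used log2(CPM + 1) profiles centred on group means; 1 gene among the closest is not reported here. Gene positions and exon lengths were from GENCODE M21 (GRCm38, the assembly of mm10). Promoters were from RefSeq.

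All 10 members are named. From each other list, up to 4 genes past the threshold with the smallest p are named, otherwise 2. The members and lists were chosen with earlier results of these data known.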

Additional observations from a re-analysis of the deposited data

Results flagged for a closer look

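Within the 4 early telogen KO libraries, replicate 2, the only one labelled male, stood apart in 2 of the 10 genes. Its Btg2 was at 701 CPM, against 403 to 434 CPM in the other 3, and its Zfp36 at 2107 CPM, against 1201 to 1350 CPM. Only the early telogen KO group was large enough for this check of a single far sample among levels and ratios (20 sets of values in all), and chance gives about 1 in 20. The same library had the highest summed fibroblast markers (4975 CPM) and a Ly6a level of 56.0 CPM. Sex and this library cannot be told apart within the KO group. The part of sex and of these markers in the Btg2 and Zfp36 levels was not tested. Without it the log2 fold change of KO against WT was -1.22 ± 0.33 for Btg2 (edgeR adjusted p = 0.150) and -0.84 ± 0.23 for Zfp36 (0.127).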

How the results depend on the processing

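The 40 group means in CPM moved by less than 1 SD with another scaling. Of the log2 fold changes of single genes under other settings, 427 kept their direction and side of the threshold, 47 reversed, 19 passed the threshold and 9 fell behind it. For the difference between stages, this tally covers Btg2 and Fosb only. Counts of genes called depended on the setting. For early telogen KO against WT (115 in the report) they were 399 with DESeq2, 338 without the filter, 39 in the fit of all 12 libraries, 11 with a replicate block and 47 without KO replicate 2 and WT replicate 3 (chosen after seeing the data), and 19 to 131 with a library left out. For anagen KO against WT (0 in the report) they were 499, 306 and 154 in the first 3 of these, 1 with sex as a covariate, 253 with the title day as a replicate block, and 0 to 95 with a library left out. The stage comparisons gave 2312 to 3329 in WT and 1382 to 3640 in KO with a library left out. The difference between stages (19) was called for 148 genes by DESeq2, 409 without the filter, 39 with library totals, 6 with the sex covariate and 0 to 55 with a library left out. In each case the cause was not tested.

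Some estimates changed sign, none of them called in the report. In early telogen these were Fos with the replicate block (-0.29) and Jund with library totals (0.074); early telogen numbers 1 and 3 share only a number (r = 0.112 and 0.0503 across genes), and 0 members were called with that block. In anagen, the sex covariate turned Fosb (0.38), Junb (0.24), Jund (0.62), Atf3 (0.67) and Zfp36 (0.62), the block by title day turned Jun (-0.073), Egr1 (-0.015) and Ier2 (-0.052), and library totals turned Junb (0.075). The sex covariate also turned Atf3 in WT between stages (0.080) and Fosb in the difference between stages (-0.24). In that difference only Fosb and Btg2 were followed, so changes of sign in the other members are not given.

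With a library left out, early telogen KO against WT ranged from -0.20 to 0.39 for Fos, -0.61 to 0.073 for Fosb and -0.28 to 0.043 for Jund. Anagen KO against WT ranged from -0.95 to 0.81 for Fos, -2.06 to 0.23 for Fosb, -0.84 to 0.73 for Jun, -0.54 to 0.35 for Junb, -1.41 to 0.57 for Jund, -0.66 to 0.65 for Egr1, -1.44 to 0.46 for Atf3, -0.82 to 0.65 for Ier2, -1.06 to 0.92 for Btg2 and -1.22 to 0.51 for Zfp36. WT between stages ranged from -0.61 to 0.00023 for Fos, -0.51 to 0.020 for Egr1 and -0.50 to 0.097 for Atf3. KO between stages ranged from -1.06 to 0.69 for Fos and -0.995 to 0.56 for Jun. It ranged from -1.26 to 0.71 for Jund and -1.08 to 0.80 for Atf3. The difference between stages, in which only Fosb and Btg2 were followed, ranged from -0.53 to 1.74 for Fosb. With 830 or more counts of each member in each library, counting error was small beside the spread between libraries.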
